A study of Homo sapiens with 4 samples.

Results

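The fringe genes and the core of the Notch pathway were examined in NB4, an established human acute promyelocytic leukemia (APL) cell line, and in a clone of it that is resistant to arsenic trioxide (ATO). The 10 genes described are MFNG, LFNG and RFNG, NOTCH1, NOTCH2 and NOTCH3, DLL1 and JAG1, RBPJ and HES1. They were taken out of 18211 genes named on the array as every probe carrying one of these names, and the set was chosen on measured values, because MFNG had one of the largest differences between the lines. The parental line, labelled naive, was represented by 2 flasks. The resistant line, also 2 flasks, is 1 clone, labelled NB4-VM-AsR1 and taken to be the one that the study's methods name NB4-EV-AsR1. It was kept out of ATO for a week before the experiment. Both lines grew in RPMI with FBS. Total RNA of each flask was labelled with Cy3 and hybridised to 1 of 4 Agilent 1-colour arrays on 1 slide.

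Notch receptors are cut at the cell surface after they bind a ligand of the Delta or Jagged families on a neighbouring cell, and the freed intracellular part enters the nucleus and activates genes together with RBPJ. Fringe enzymes add N-acetylglucosamine to O-linked fucose on the receptor's EGF repeats in the Golgi, which alters how the receptor responds to Delta and to Jagged ligands. In blood cells the pathway is best known for directing lymphoid progenitors toward the T lineage.

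Values are log2 of the background-subtracted signal of a probe minus the 75th percentile of its array, so 0 is the 75th percentile and 1 unit is a 2-fold change. All differences are resistant minus naive. Tests covered the probes that the scanner software marked as well above background in both flasks of either line. It was called at a Benjamini-Hochberg adjusted limma p below 0.05 and at least 2-fold. Levels of different probes cannot be set against each other, because probes bind with different strength. Between 27921 and 28243 of 41000 probes were well above background on each array. The naive flasks differed more from each other (SD of the difference over probes 0.714, r = 0.976) than the resistant flasks did (SD 0.371, r = 0.994). The naive flasks lay on the first positions of the slide and the resistant flasks on the last, so position and line cannot be told apart. In RNA from a whole culture, a change in the share of cells that express a gene and a change in the RNA per cell cannot be told apart either.

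The cell type was checked with marker genes. Of 6 promyelocyte granule and surface genes, among them MPO, AZU1, PRTN3 and CD33, 6 were well above background on 3 arrays. On the second naive array 5 were, ELANE being the exception. ELANE (2.49) and AZU1 (1.17) were called higher in the resistant line. PRTN3 (2.39), CTSG (0.78), MPO (0.06) and CD33 (-0.29 and -0.28) were not called. For PRTN3 the naive flasks were 2.35 apart, and MPO was saturated on all 4 arrays. No stromal or endothelial marker (0 of 4) was above background on any array. Of 4 T-cell genes, CD3D, CD3E and CD2 were above background in the naive flasks, and CD3E and CD2 in the resistant flasks. CD3D read 0.70 and 1.16 in the naive flasks and was not above background in the resistant flasks (-7.61 and -7.11). Its measured difference was -8.29, which gives at least 167-fold lower. CD2 differed by 1.02 and the CD3E probes by -0.43 and -0.01. TRAT1 was below background on every array. Among B-cell genes, CD79A was above background in all flasks and MS4A1 and PAX5 in none. Among erythroid genes, ALAS2 was above background on every array and HBB on none. The part of these genes in the results below was not tested.

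The array carries 16 probes for the 10 genes, and 15 of them, for 9 genes, were above background on all 4 arrays. The exception was NOTCH3. None was saturated and no spot was marked as an outlier. Of the 15 probes, 2 were called, both for MFNG and both higher, against 5.27% of the 28220 probes tested. The other 13 were not called. In 10 probes the flasks of the lines did not overlap, 2 of them higher in the resistant line and 8 lower, and among all tested probes with a value on every array 24.6% lay wholly higher and 28.2% wholly lower. These shares describe a set that was picked on the same arrays, and no p-value is given for its members. The median difference was -0.41 over the 15 member probes and -0.02 over all tested probes. In 8 of the 15 probes the difference between the lines was larger than the gap between the flasks of either line, as it was in 38.8% of all tested probes. In 12 of the 15 the second naive flask was brighter than the first, compared with 53.8% of all tested probes.

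MFNG encodes manic fringe. It was read by 2 probes of the same transcript on the minus strand, at chr22:37865325-37865384 and chr22:37865115-37865174 (hg19), so that 2 separate sequences report the same RNA. The first 30 of the 60 bases of each are shown for that reason.
MFNG probe A_23_P103104: ccaattgtgatgatcctttttgctcatttc
MFNG probe A_24_P224926: agacaatcatccacagctattccctccagc

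The MFNG probe A_24_P224926 read -2.27 and -1.92 in the naive flasks and 3.30 and 3.40 in the resistant flasks. The difference was 5.44, or 43.5-fold. Its linear signal, before scaling between arrays, was 224 and 238 in the naive and 10310 and 8902 in the resistant flasks. Both resistant flasks thus stood far above both naive flasks, which were themselves above background. The second probe, A_23_P103104, read -3.26 and -3.02 in the naive and 1.91 and 2.02 in the resistant flasks. Its difference was 5.11, or 34.5-fold. On either probe the naive flasks lay within 0.35 of each other and the resistant flasks within 0.11. With each gene given by its brightest probe, MFNG ranked 14 of 13861 named genes by its difference in the higher direction. These values chose the set and are given as a description.

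LFNG encodes lunatic fringe, the family member whose expression oscillates in the forming somites. Its probe A_23_P8452 read -0.91 and -0.82 in the naive and -1.68 and -1.12 in the resistant flasks. That difference was -0.54, and the resistant flasks differed from each other by 0.56. The second LFNG probe, A_23_P434518, read -2.09 and -2.14 in the naive and -2.24 and -2.20 in the resistant flasks, a difference of -0.11. Both probes were lower without overlap, by unequal amounts, and the file assigns them to different LFNG transcripts. RFNG encodes radical fringe. Its probe A_23_P84629 read -2.16 and -1.52 in the naive and -1.34 and -1.54 in the resistant flasks, a difference of 0.40. The other RFNG probe, A_24_P138912, read -2.49 and -1.87 in the naive and -1.87 and -1.91 in the resistant flasks, a difference of 0.29. On both RFNG probes the second naive flask lay among the resistant ones and only the first naive flask was lower. Of the 3 fringe genes, then, MFNG alone had probes that were called.

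**Figure D1:**
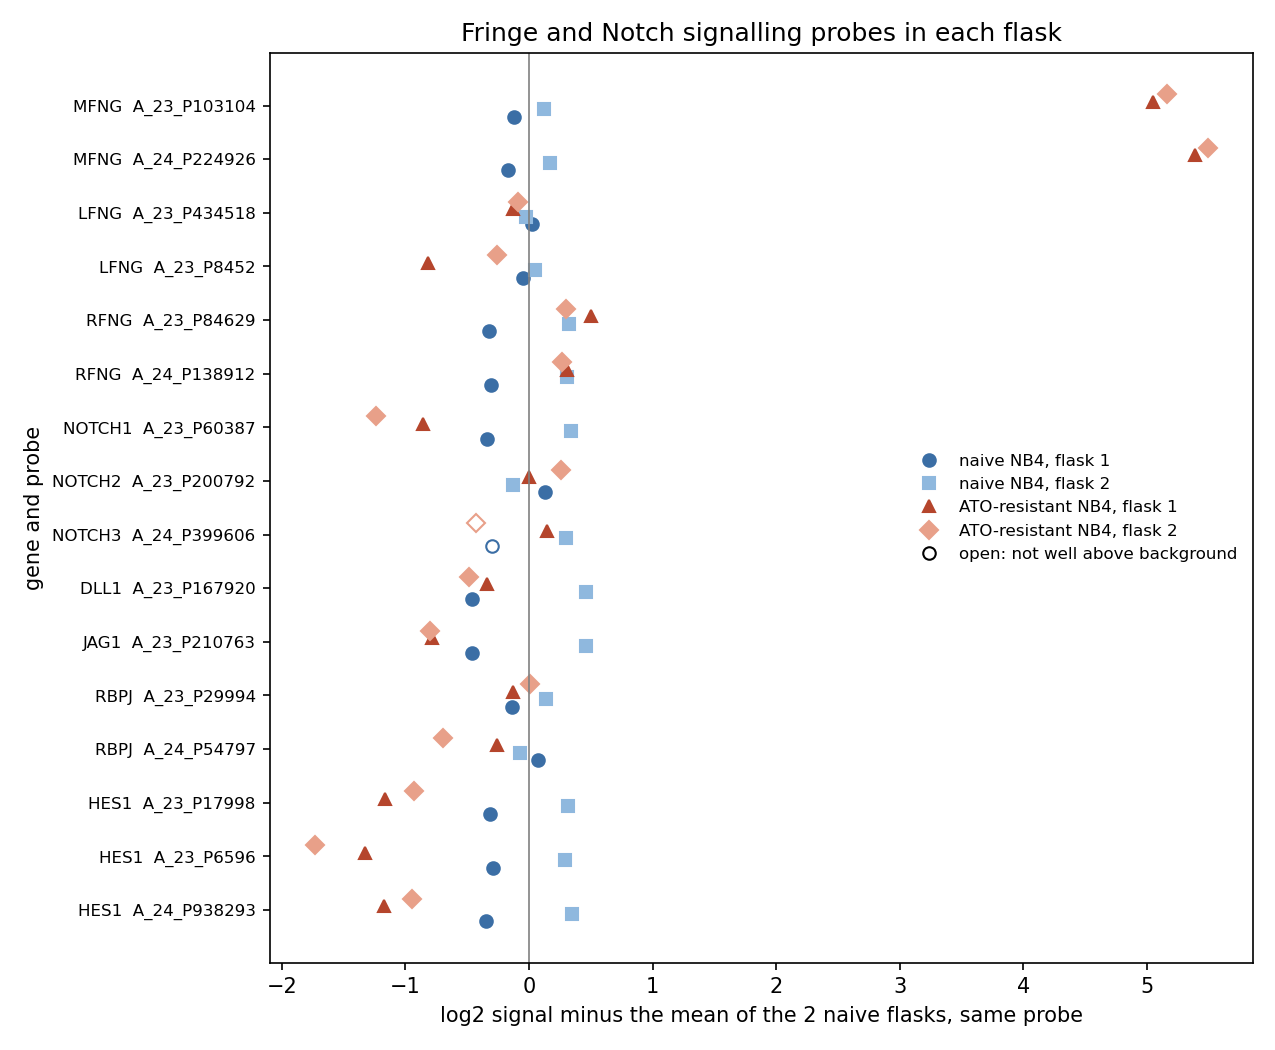
Each row is 1 probe of a fringe or Notch signalling gene, and the horizontal axis gives its log2 signal in each of the 4 flasks minus the mean of the 2 naive flasks. Filled symbols are well above background and open ones are not. The 2 MFNG probes of the resistant flasks lie more than 5 units to the right, while the 3 HES1 probes and NOTCH1 lie to the left of both naive flasks.

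NOTCH1 encodes the receptor that drives T-cell commitment. Its single probe (chr9:139389764-139389823, hg19) is printed in 10 spots on each array. NOTCH1 read -1.40 and -0.73 in the naive flasks and -1.92 and -2.30 in the resistant flasks. Its difference was -1.05, or 2.07-fold lower, without overlap. The naive flasks were 0.68 apart and the resistant flasks 0.38. The SD over the 10 spots of an array was between 0.06 and 0.08, so the flasks of 1 line differed by far more than the spots of 1 array did. The lowest spot of the first naive array read -1.51 and the highest spot of the first resistant array -1.72, and no spot of a resistant array reached a naive one. Spots of 1 array share their RNA and are not replicates.

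**Figure D2:**
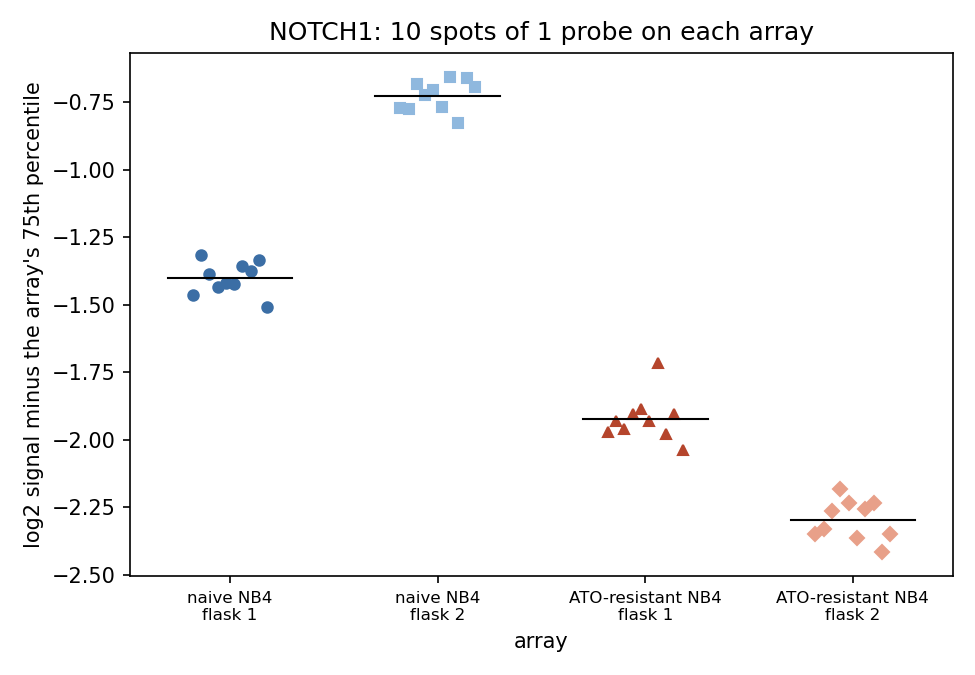
The log2 signal of the 10 NOTCH1 spots, relative to the 75th percentile of each array, is plotted for each of the 4 arrays, with a line at their mean. The spots of an array lie close together, and the 4 arrays form separate bands with both naive arrays above both resistant arrays.

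NOTCH2, a receptor needed for marginal zone B cells, read 2.78 and 2.52 in the naive and 2.66 and 2.91 in the resistant flasks. The difference was 0.13 and the lines overlapped. NOTCH3, the receptor of vascular smooth muscle, read -6.31 and -5.71 in the naive and -5.86 and -6.44 in the resistant flasks. It was above background only on the second naive and the first resistant array, so it was not tested, and its lines overlapped.

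Both ligands were brightest in the second naive flask. DLL1, a Delta ligand, read 1.08 and 2.00 in the naive and 1.21 and 1.06 in the resistant flasks. The difference was -0.41, and the first naive flask lay among the resistant flasks. JAG1, a Jagged ligand, read 1.74 and 2.66 in the naive and 1.41 and 1.40 in the resistant flasks. Its difference of -0.79 came without overlap, but the naive flasks were 0.92 apart for either ligand, more than the difference itself. Without the second naive flask the differences were 0.05 for DLL1 and -0.33 for JAG1, and without the first -0.87 and -1.25.

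RBPJ is the DNA-binding partner of the Notch intracellular domain. Its brighter probe, A_23_P29994, read 4.29 and 4.56 in the naive and 4.30 and 4.44 in the resistant flasks, a difference of -0.06 with overlap. Over 16 settings that difference ran from -0.33 to 0.14 and kept its sign in 12. The settings are alternatives to the main one and include fits without 1 flask. Some change only the test or the probe filter and cannot move a difference. The second RBPJ probe, A_24_P54797, read 1.71 and 1.56 in the naive and 1.38 and 0.94 in the resistant flasks, a difference of -0.48 without overlap. RBPJ has processed pseudogenes, and whether either probe reads them was not tested. A_24_P54797 has no genome position in the file, so what it reads is uncertain. The RFNG probe A_23_P84629 and, among probes described below, PSEN2 A_23_P96985 and the dimmer GXYLT2 probe have no position either.

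HES1, a repressor of the basic helix-loop-helix class, is the classic direct target of Notch. Its promoter is shown because it carries the core of the RBPJ motif, GTGGGAA, 85 bases before the gene's start. The capitals mark it in a stretch read from the RefSeq promoter table (GRCh38.p14, plus strand, chr3:194136033-194136099).
HES1 promoter: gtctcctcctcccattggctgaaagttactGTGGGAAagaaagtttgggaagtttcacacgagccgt

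The letters GTGGGAA were searched on both strands from 250 bases before to 50 after each start. They occurred in 6.25% of the 35116 promoters. Of the 10 genes, 8 had 13 promoters in the table, and 2 of these promoters (15.4%), 1 of HES1 and 1 of RBPJ, held the motif. RBPJ has 5 promoters there and held it in 1, at 73 and, on the opposite strand, 115 bases before the start. MFNG and DLL1 had no entry. A match describes letters and does not show a bound site.

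HES1 was read by 3 probes along 1 transcript on chromosome 3, of which the first 30 bases are shown in order from the 5′ end because all 3 gave a lower signal in the resistant line.
HES1 probe A_24_P938293: accctcagcacttgctcagtagttttgtga
HES1 probe A_23_P6596: agtcatcaaagcctattatggagaaaagac
HES1 probe A_23_P17998: gagagagctgtattaagtgactgaccatgc

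HES1 probe A_24_P938293 (chr3:193854044-193854103, hg19) read 0.25 and 0.95 in the naive and -0.57 and -0.34 in the resistant flasks. HES1 probe A_23_P6596 (chr3:193854404-193854463) read -3.33 and -2.75 in the naive and -4.37 and -4.77 in the resistant flasks. HES1 probe A_23_P17998 (chr3:193856176-193856235) read 1.36 and 1.99 in the naive and 0.51 and 0.74 in the resistant flasks. On each probe both resistant flasks lay below both naive flasks. The differences were -1.06, -1.53 and -1.05, or 2.08-fold, 2.89-fold and 2.07-fold lower. None of the 3 was called. The difference of the brightest HES1 probe stayed below 0 in all 16 settings, from -1.37 to -0.73, as did that of NOTCH1, from -1.38 to -0.70. Some of these settings change only the test or the probe filter and could not move it.

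The remaining genes of the pathway were taken from a list of 73. Of these 72 are on the array, the exception being NRARP, and 58 were tested. Of the 58 genes, each given by its brightest probe, 2 were called higher (KAT2B and HEY1) and 3 lower (PSEN2, GXYLT2 and CCND1), while 53 were not called. Among all 13861 named genes 2.87% were called higher and 3.33% lower. The 5 of 58 make 8.62%, and 6.20% of all named genes were called in either direction. The median difference of the 58 genes was 0.05, and that of all named genes 0.00. At an unadjusted limma p below 0.05, 16 of the 58 genes passed, as did 5382 of the 28220 probes tested. The genes GXYLT2 and HEYL were well above background in the naive line only, and LNX1, HEY1 and HEY2 in the resistant line only, so that they entered the test through the line where they were brighter. With signal above background required on all 4 arrays, 3 pathway genes and 760 probes of the array were called. GXYLT2 and HEY1 were among the genes left out. For this and the settings below only counts are given, without the share called over all genes. The normexp background correction was run with 50 added to every signal, which shrinks log2 differences of dim probes. With it limma called 0 probes on the array, MFNG included. With bright local backgrounds reset before it, a setting chosen after seeing the data, 1189 probes and 4 pathway genes were called. Without a naive flask 12 or 13 of the pathway genes were called, and without a resistant flask 3 or 2, when KAT2B, HEY1 and CCND1 were not called.

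PSEN2 encodes presenilin 2, a catalytic subunit of the gamma-secretase that releases the Notch intracellular domain. It had the largest difference among the 58 genes, and all 3 of its probes were called lower. They are shown by their first 30 bases, in transcript order.
PSEN2 probe A_23_P96985: accatcttcttggtggtgctctacaagtac
PSEN2 probe A_24_P62521: cacggacaggaagcacagcaggtttatcca
PSEN2 probe A_23_P103398: ggagtgttcccaatgctttgtccatgatgt

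PSEN2 probe A_23_P103398 (chr1:227083660-227083719, hg19) read 1.32 and 1.53 in the naive and -2.03 and -1.69 in the resistant flasks. The difference was -3.28 (SE 0.25, limma adjusted p = 0.00291), or 9.73-fold lower. PSEN2 probe A_24_P62521 (chr1:227083494-227083553) read -0.44 and -0.18 against -3.72 and -3.63, a difference of -3.36. PSEN2 probe A_23_P96985 read -2.96 and -2.95 against -6.08 and -6.17, a difference of -3.17, and was above background in both naive flasks and the first resistant flask. The 3 differences lay within 0.2 of each other. The gamma-secretase subunits NCSTN (0.50), APH1A (0.27), APH1B (1.36) and PSENEN (-0.14), named after their values were seen, were not called. The receptor-cutting proteases ADAM10 (-0.30) and ADAM17 (0.35) were not called either.

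GXYLT2 encodes a xylosyltransferase that extends O-linked glucose on the EGF repeats of Notch. Its brighter probe read -4.44 and -4.48 in the naive flasks and was not well above background in the resistant flasks (-7.27 and -7.63). It was at least 3.97-fold lower in the resistant line, and on its other probe at least 2.13-fold lower. Both probes entered the test through the naive line only. Their limma adjusted p (0.00353 and 0.00214) tests the measured differences of -2.99 and -3.36, against resistant signals below background. A filter for signal above background on all 4 arrays left the gene out. With no filter on dim probes the brighter probe was called (limma adjusted p = 0.0122), against the same resistant signals below background. With normexp the brighter probe differed by -0.11, and by -0.55 with bright local backgrounds reset, and it was then not called. The 50 added to every signal in both settings shrinks a difference between signals this dim. The bound sets the naive mean against the lowest signal that counted as above background on each resistant array, or against the probe's value there if it exceeded that signal. Of the other 5 tested glycosyltransferases outside the fringe family, none was called. POFUT1, which adds the O-fucose that fringes extend, differed by -0.84 and POGLUT1, which adds O-glucose, by 0.66, both named after their values were seen.

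KAT2B encodes the acetyltransferase PCAF, a coactivator that joins the Notch complex. Its brighter probe read -2.53 and -1.79 in the naive and -0.39 and -0.35 in the resistant flasks. The difference was 1.79 (SE 0.31, limma adjusted p = 0.0414), or 3.46-fold higher. Its other probe rose by 1.81. With quantile normalization in place of the percentile shift the adjusted p was 0.053 in limma, and the gene was then no longer called.

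**Figure D3:**
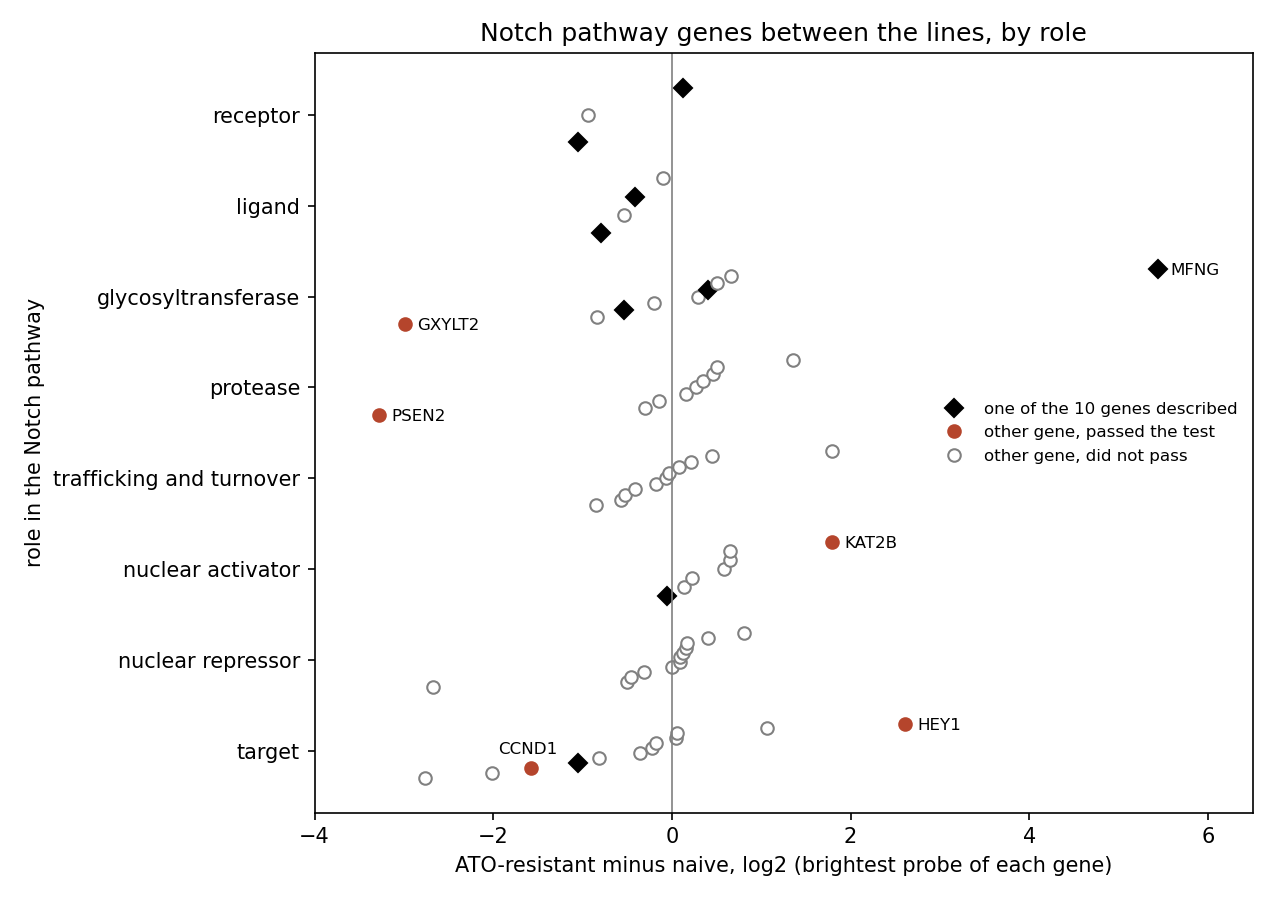
Each point is 1 tested Notch pathway gene, given by its brightest probe, with the resistant minus naive difference in log2 on the horizontal axis and its role on the vertical axis. Black diamonds are the genes described, red points are other genes that passed the test, and open points did not pass. MFNG stands alone at 5.44, and most of the open points lie within 1 unit of 0. The points of GXYLT2, HEYL, LNX1, HEY1 and HEY2 are measured differences against signals below background in 1 line.

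HEY1, a repressor related to HES1 and likewise a direct target, had 1 probe. HEY1 was not well above background in the naive flasks (-7.72 and -6.84) and read -4.66 and -4.69 in the resistant flasks. It was at least 3.0-fold higher. HEY1 entered the test through the resistant line only. Its limma adjusted p of 0.0166 (0.0451 without a filter on dim probes) tests the measured difference of 2.60, against naive signals below background. A filter for signal above background on all 4 arrays left HEY1 out. With normexp, with and without the reset of bright local backgrounds, HEY1 differed by 0.65 and was not called. In both settings the 50 added to every signal shrinks a difference between signals this dim. CCND1, cyclin D1, read -2.08 and -2.14 in the naive and -3.59 and -3.78 in the resistant flasks. That difference was -1.58 (SE 0.22, limma adjusted p = 0.0209). A second CCND1 probe was not well above background in the resistant flasks and entered the test through the naive line only. It was at least 2.88-fold lower. The third CCND1 probe differed by -1.10 without being called (limma adjusted p = 0.122). Of the 11 tested targets other than HES1, 9 were not called. Among them, named after their values were seen, HES2 differed by -2.01 (limma adjusted p = 0.271). HEYL was not well above background in either resistant flask, which gives at least 2.80-fold lower. Its measured difference of -2.76 was not called (limma adjusted p = 0.0645).

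**Figure D4:**
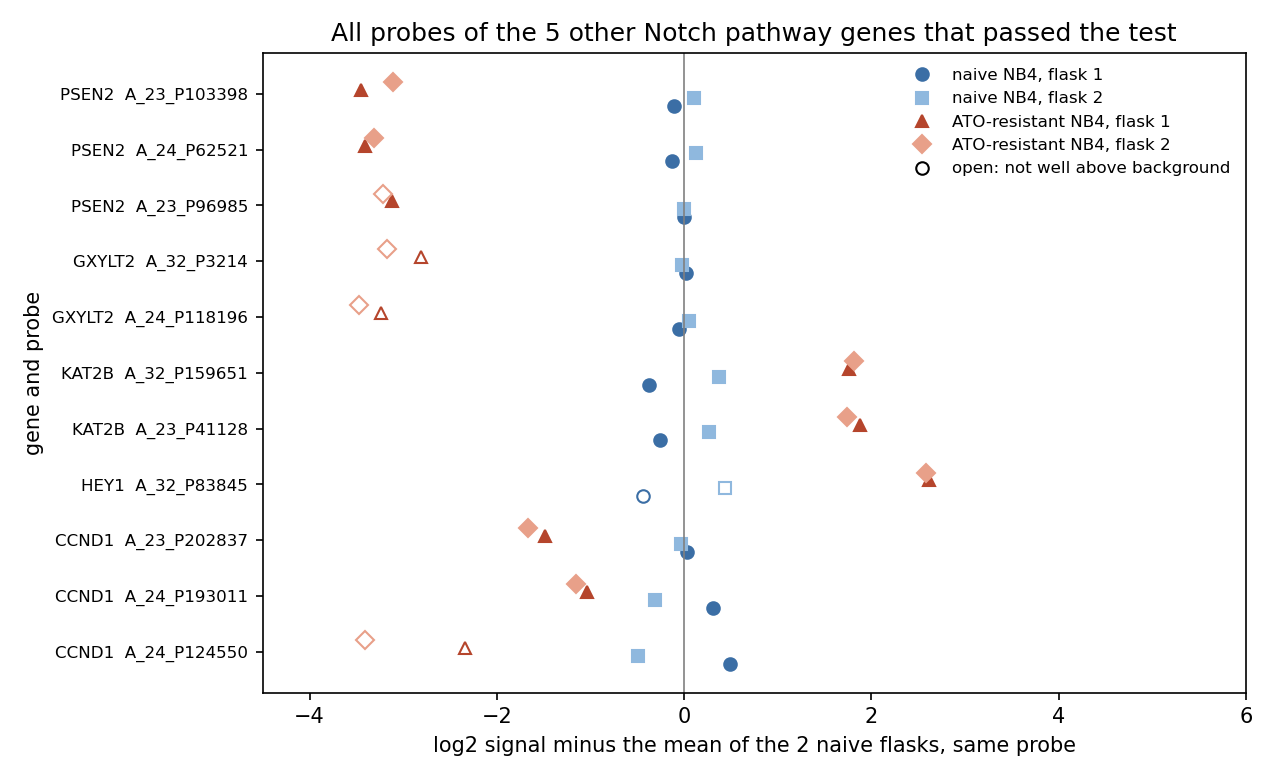
Every probe of the 5 called genes outside the described set is a row, and the horizontal axis gives its log2 signal in each flask minus the mean of the 2 naive flasks. Open symbols are not well above background. All 3 PSEN2 probes of the resistant flasks lie more than 3 units to the left, the KAT2B and HEY1 probes lie to the right, and the 3 CCND1 probes are shifted left by unequal amounts.

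In the roles without a call, the largest differences were as follows. NOTCH4, the fourth receptor, differed by -0.94 (limma adjusted p = 0.116) on its brighter probe and by -0.16 on the other. DLK1, a ligand without the domain that activates Notch, differed by -0.54 (limma adjusted p = 0.616). LNX1, a ubiquitin ligase of the Notch inhibitor NUMB, differed by 1.79 (limma adjusted p = 0.0553), with no signal well above background in the naive flasks, which gives at least 2.14-fold. LNX1 was called with quantile normalization (limma adjusted p = 0.0384), the shift to the median (limma adjusted p = 0.0318) and scale normalization (limma adjusted p = 0.0103). It was not called without a filter on dim probes (limma adjusted p = 0.112) or with normexp and bright local backgrounds reset (limma adjusted p = 0.34). With normexp alone, which shrinks differences of dim probes, LNX1 differed by 0.54. The other LNX1 probe was not well above background on any array. TLE1, a corepressor of the Groucho family, differed by -2.67 (limma adjusted p = 0.0653), and its naive flasks, at -1.55 and -3.14, were 1.59 apart. TLE1 was called with scale normalization (limma adjusted p = 0.00825) and differed by -0.74 with normexp. With 1 flask left out, the LNX1 difference ranged from 1.35 to 2.23 and that of TLE1 from -3.47 to -1.88. Of the listed ligands outside the described set 4 of 6, DLL3, DLL4, JAG2 and DNER, were not above background in both flasks of either line.

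The 5 genes with the pattern most like MFNG were found over the 4 flasks, with each gene's values centred on their own mean, among 12604 genes. By Euclidean distance they were SV2B (0.107), PRAME (0.723), SERPINF1 (0.760), TRIM6 (1.12) and EPN2 (1.16). SV2B, a synaptic vesicle glycoprotein, read -2.94 and -2.69 in the naive and 2.68 and 2.74 in the resistant flasks. PRAME, an antigen of many tumours and leukemias, read -5.18 and -4.46 against 1.29 and 1.30. SERPINF1, a secreted serpin, read -3.43 and -3.35 against 1.34 and 1.31. The distance over 4 flasks mostly measures the size of the difference between the lines.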

How the data were processed

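The authors extracted the 1-colour images with Feature Extraction 10.5.1.1 (per the file headers) and deposited its output, in which the processed signal is an intensity, background-subtracted and on a linear scale. Their own log2 values, scaled to each array's 75th percentile, were deposited as a second table. Here log2 was taken of the intensities, control spots and outlier spots were left out, spots of a probe were averaged and each array's 75th percentile was subtracted (r with the deposited log2 table at least 0.9998 on each array). All probes were fitted together with limma 3.58.1 in R 4.3.3. Signal over background takes the place of depth, and precision is limited by having 4 arrays. With 2 flasks per line no exact two-sided permutation test of 1 gene can go below 0.333, so calls rest on the spread limma pools over probes. Probe positions are those of the files (hg19). Symbols were updated through RefSeq accessions for 26222 of 41000 probes. Promoters come from the RefSeq table of GRCh38.p14; protein sequences were not used here. The members and the gene lists were chosen with earlier results of these data known. Named were the 10 genes, every called pathway gene, in each role without a call the gene with the largest difference, and the 5 genes nearest to MFNG. Some genes of the marker and pathway lists are not reported here by name. The limma fit was tested on simulated data. Alternatives were other background corrections, normalizations, filters, the deposited table, an intensity trend, the methods' t-test, a replicate block, each flask left out and the mean over a gene's probes.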

Additional observations from a re-analysis of the deposited data

How the results depend on the processing

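The MFNG difference stayed between 4.70 and 5.62 over 16 alternative settings. Some of these change only the test or the probe filter and could not move the difference. The normexp correction, with 50 added to every signal, gave 4.70. Resetting the bright local backgrounds before normexp (an alternative chosen after seeing the data) gave 5.06. Without 1 flask the MFNG difference ranged from 5.27 to 5.62. Over all probes 1486 were called (649 higher, 837 lower). Normexp called 0 probes and 0 pathway genes in either direction by limma, with 930 probes and 3 pathway genes at an unadjusted p below 0.05, and the cause was not tested. With the bright local backgrounds reset before normexp, 1189 probes (536 higher, 653 lower) and 4 pathway genes were called. The methods' t-test likewise called 0 of each after adjustment, with 4137 probes and 13 pathway genes unadjusted. A filter for signal above background on all 4 arrays left 760 called probes (347 higher, 413 lower) and 3 pathway genes, 1 of them higher. Without a filter 416 probes and 1 pathway gene were called higher, KAT2B being lost (limma adjusted p = 0.088). Scale normalization, which moved the median of all probes by 0.10, called 9 pathway genes (4 higher, 5 lower).

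Leaving out 1 flask gave 727 to 4536 called probes, 273 to 2508 of them higher and 454 to 2028 lower, and 2 to 13 pathway genes, 0 to 6 higher and 2 to 7 lower. The lone flask of a line is then assumed to vary like the other line's. Without naive flask 1 or 2, 3728 and 4536 probes and 12 and 13 pathway genes were called. Without resistant flask 1 or 2, 739 and 727 probes and 3 and 2 pathway genes were called, and KAT2B, HEY1 and CCND1 were not called in either case. PSEN2 and GXYLT2 were called without any single flask. GXYLT2 (-0.55) and HEY1 (0.65) were not called with normexp and bright backgrounds reset, a setting that shrinks differences of dim probes. DLK1 turned to 0.064 under normexp, and without 1 flask it ranged from -1.29 (naive flask 1 left out) to 0.21 (naive flask 2 left out). Of the values of the described genes under alternatives 139 moved by less than the spread between flasks and 6, of MFNG and RBPJ, by more. The 139 include settings that change only the test or the probe filter and cannot move a difference. With the replicate number as a block 1373 probes and 5 pathway genes were called, and no call of a named gene changed. The numbers are not known to pair the flasks (r = 0.119 between same-numbered flasks, 2 pairs). The slide could not serve as a block, since all arrays lay on 1 slide. NOTCH3, GXYLT2, HEY1 and LNX1 are limited by signal over background.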
